A study of Mus musculus with 6 samples.

Results

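The 78 genes described here carry the symbols of mitochondrial ribosomal proteins, Mrpl or Mrps followed by digits and at most 1 letter, and were taken by them from 55487 listed genes. All but Mrps36 encode proteins of the mitochondrial ribosome. Of these, 49 carry an Mrpl symbol and 29 an Mrps symbol, and 6 listed pseudogenes of the family were left out. RNA-seq was performed on intestinal epithelial cells (IECs) from the colon of mice about 2 months old that had all been given dextran sodium sulphate (DSS) at 2%, an agent that damages the lining of the colon and sets off colitis. One genotype, Nsd2 f/f (3 libraries, f/f below), has loxP sites around an intact Nsd2. The other, Nsd2 Vil-KO (3 libraries, Vil-KO below), carries the same floxed gene together with Cre under the Villin promoter, so that deletion is restricted to intestinal epithelium and other cells in a preparation keep the gene. The libraries held 15439123 to 20350539 counted reads, and the comparison asked whether the transcripts of the large and the small mitochondrial subunit differed between the genotypes. In bulk libraries, fewer epithelial cells and less RNA per cell cannot be told apart.

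Mitochondria keep a small genome of their own and translate its messages on a dedicated ribosome, which sits at the inner membrane and makes core subunits of the respiratory chain and of ATP synthase. The RNAs of this ribosome are encoded in mitochondrial DNA, whereas every one of its proteins is encoded in the nucleus, made in the cytosol and imported. The small subunit reads the message, and the large subunit joins amino acids and passes the chain to the membrane. Part of the proteins are shared with bacteria, and the rest were added in mitochondria. In the colon, absorptive cells near the lumen rely on oxidation of short-chain fatty acids in mitochondria.

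Symbols and structure do not match for 3 of the genes. Mrps18a and Mrps30 are named for the small subunit, but their proteins sit in the large subunit of the mammalian structure, and the product of Mrps36 is a component of the 2-oxoglutarate dehydrogenase complex. Placed by structure, 51 genes belong to the large and 26 to the small subunit, of which 46 are shared with bacteria and 31 are mitochondria-specific. The products of 5 further genes under other symbols, Dap3, Chchd1, Aurkaip1, Ptcd3 and Gadd45gip1, are also part of the ribosome and are described as a related list.

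The promoters were examined first, for short sequences that transcription factors of mitochondrial genes are known to bind. RefSeq promoters on GRCm38.p6, each 300 bases long from 250 before to 50 after the start, were found for 69 of the 78 genes. The NRF1 motif GCGCANGCG was present on either strand in 23.2% of these genes, against 7.03% of all 27025 genes with a promoter and 14.5% of the 10617 that were also tested here. The ETS motif CCGGAAG was present in 37.7%, against 9.93% of all genes and 19.5% of the tested ones. The YY1 motif AAGATGGC was present in 17.4%, against 3.19% and 5.08%. All of these shares were thus higher among the mitochondrial ribosomal genes than among tested genes, with no test made of the difference. The SP1 motif GGGCGG, was present in 49.3%, a share above that of all genes, at 38.2%, and below that of tested genes, at 66.3%. The E-box CACGTG was present in 7.25%, against 8.09% of all and 11.4% of tested genes, and these differences were not tested either. By subunit, the SP1 motif was in 37.8% of 45 large-subunit and 69.6% of 23 small-subunit promoters. No motif contains another, 12 of the 69 genes held none of them, and a match describes letters in the window, not binding.

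The stretches that follow are upstream of the start, on no annotated exon, and are shown for the marker of each subunit, Mrpl12 and Mrps12, for Mrps15, the small-subunit gene with the lowest log2 fold change, and for Mrpl2, among the highest of the large subunit. Each is 100 bases long and written 5′ to 3′ on the strand of the gene, with matches to the motifs above in capitals. Mrpl12 is on the plus strand at chr11:120484513-120484612, Mrps12 on the minus strand at chr7:28741822-28741921, Mrps15 on the plus strand at chr4:126046825-126046924 and Mrpl2 on the plus strand at chr17:46646121-46646220.
Mrpl12: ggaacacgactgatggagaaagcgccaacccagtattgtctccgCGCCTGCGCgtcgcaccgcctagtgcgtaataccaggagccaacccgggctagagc
Mrps12: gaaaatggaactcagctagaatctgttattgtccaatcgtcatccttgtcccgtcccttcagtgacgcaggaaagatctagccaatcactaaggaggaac
Mrps15: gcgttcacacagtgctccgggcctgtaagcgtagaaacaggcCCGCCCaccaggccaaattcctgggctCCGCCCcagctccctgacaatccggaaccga
Mrpl2: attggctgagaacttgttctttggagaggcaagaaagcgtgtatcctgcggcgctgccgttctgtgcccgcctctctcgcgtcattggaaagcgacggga
The capitals mark 1 NRF1 match upstream of Mrpl12 and a pair of SP1 matches upstream of Mrps15. No motif searched lay in the stretches of Mrps12 and Mrpl2. Outside the stretch, the Mrps12 promoter held an ETS match just after the start and a YY1 and an SP1 match farther upstream, and the Mrpl2 promoter a pair of SP1 matches and an E-box.

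Reads were counted on genes and are given as CPM, counts scaled to one library size with TMM factors, or per length, as counts per base of exon scaled to the same total per library. Nsd2 had 47.9, 51.2 and 24.6 CPM in the f/f libraries, given here and below in the order of replicates 1, 2 and 3, and 24.2, 10.4 and 20.8 CPM in the Vil-KO libraries. Its log2 fold change was −1.16 (SE 0.40), or −1.42 to −0.87 when any 1 library was dropped. On the CPM scale, the library f/f replicate 3 was thus at the level of Vil-KO replicate 1 for the deleted gene, at 24.6 beside 24.2 CPM. It was above Vil-KO replicate 2, at 10.4 CPM, the library with which it stood apart as described below. Per length, Nsd2 in f/f replicate 3 lay within the Vil-KO range, at 2.58 against 4.50, 1.33 and 3.93, while f/f replicates 1 and 2 had 8.47 and 8.70. Whether its label is right was not tested, and it is called f/f replicate 3 below for its label only. Epithelial markers were present in each library (Epcam at 2023 to 2786 CPM). The libraries f/f replicate 3 and Vil-KO replicate 2 stood apart, with mean Spearman correlations of 0.937 and 0.927 with the other libraries against 0.959 to 0.964. They alone held Xist in quantity, at 347 and 204 CPM against 0.26 CPM or less, and the labels give no sex. In f/f replicate 3 and Vil-KO replicate 2, summed cycling-cell markers were 236 and 428 CPM, against 819 to 1086 in the others. Mitochondrially encoded genes took 19.6% of the counts of f/f replicate 3 and 5.51% to 9.13% of the others, and summed absorptive colonocyte markers were 6081 CPM in that library against 1705 to 2335. Summed stem cell markers were 9.65 CPM in Vil-KO replicate 2 and 59.9 CPM in f/f replicate 3, against 118 to 146 in the others, and summed neutrophil markers were 2340 CPM in Vil-KO replicate 2 against 198 to 836. Ly6g, S100a8 and S100a9 carried that sum and were highest in Vil-KO replicate 2. Csf3r of the same list was lowest there, at 0.67 CPM, and Cxcr2, at 5.10 CPM, was below the 12.5 CPM of f/f replicate 1. Summed fibroblast markers ranged from 5.05 to 263 CPM, the highest in f/f replicate 1, and the T cell markers from 7.21 to 14.9 CPM. All 10 epithelial and 8 cycling-cell markers were above 0 throughout, while Mpo of the neutrophil list was at 0 in 3 libraries. The part of these features in the results was not tested, and log2 fold changes without these libraries, computed for single genes after the data were seen, are given beside the results.

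Nearly the whole family was detected in the colonic epithelium. Of the 78 genes, 77 passed the filter on low counts with at least 97 reads in each library, and their mean ran from 7.40 to 195 CPM, with a median of 39.9. The exception was Mrpl53, on chromosome 6 from 83109040 to 83109939 of GRCm38, with 0 counts in all 6 libraries, which allows at most 0.146 to 0.242 CPM per library for counting error alone. Exons of Gm42688 on the same strand cover 88.0% of the exon bases of Mrpl53, and how the counting assigned reads of shared exons is not stated in the sources used here.

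Levels between genes were compared per length. The median of the 77 genes was 41.0 per length, against 618 for 79 cytosolic ribosomal protein genes and 12.5 for all genes tested with a length. Mrpl12, whose product forms the stalk that recruits translation factors, had the highest mean level per length, at 316. It was followed by Mrps21 at 225 and Mrpl34 at 224 per length, which are small, basic, rRNA-binding proteins of opposite subunits and did not differ beyond their spread, since Mrps21 ran from 168 to 242 per length and Mrpl34 overlapped that range. Mrpl52 at 217 and Mrpl54 at 170 per length came next. At the other end were Mrpl33, at 3.13, Mrps30, at 7.69, and Mrps25, at 10.8 per length.

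**Figure D1:**
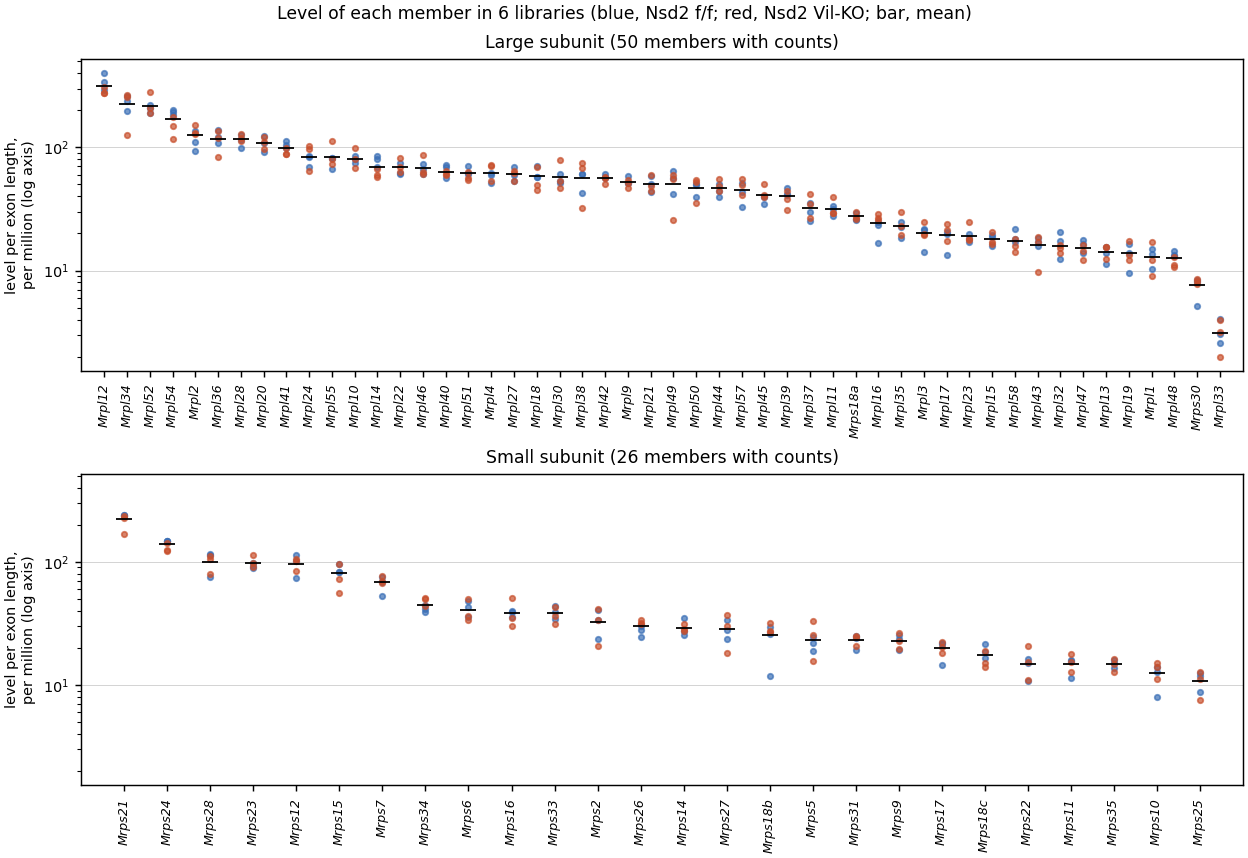
Level per exon length, scaled to the same total per library, of each member with counts, on a log axis, in 3 f/f (blue) and 3 Vil-KO (red) libraries, with the mean as a bar. Members range from Mrpl12 at a mean of 316 to Mrpl33 at 3.13, and blue and red points are intermixed for most of them.

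The order depended on the length assigned to a gene. The annotation joins long transcripts to some members, so that the union of exons of Mrpl33 measured 7326 bases but its principal transcript only 478. With the length of the principal transcript, Mrpl33 went from rank 77 to rank 49, Mrps10 from 74 to 26 and Mrpl52, a protein of the central protuberance, from 4 to 1, whereas Mrpl12 was at rank 2. Mrps30 and Mrps25 stayed among the lowest, at ranks 75 and 77. By subunit, the median level per length was 50.7 for 50 large-subunit and 29.5 for 26 small-subunit genes with the union of exons, and 60.4 and 36.1 with principal transcripts, so the large subunit was higher on both.

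The genes varied little among the libraries that resembled each other. Over all 6 libraries, the SD of log2 CPM had a median of 0.31 across the 77 genes, and over the 4 libraries without f/f replicate 3 and Vil-KO replicate 2 it was 0.16. Genes tested with mean log2 CPM in the same range had medians of 0.31 and 0.15, and the 78 tested cytosolic ribosomal protein genes 0.54 and 0.22. The spread of the mitochondrial set was therefore close to that of other genes of like abundance, and lower than that of its cytosolic counterpart. On the CPM scale, the highest library was f/f replicate 3 for 48 of the 77 genes and Vil-KO replicate 2 for 26. The lowest was Vil-KO replicate 1 for 51 genes. On that scale, the highest values thus came from the pair that stood apart, which has 1 library of each genotype. Per length, the highest library was Vil-KO replicate 3 for 31 genes, f/f replicate 2 and Vil-KO replicate 2 for 15 each and f/f replicate 3 for 10. The remaining ones were highest in f/f replicate 1, for 4, and Vil-KO replicate 1, for 2.

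**Figure D2:**
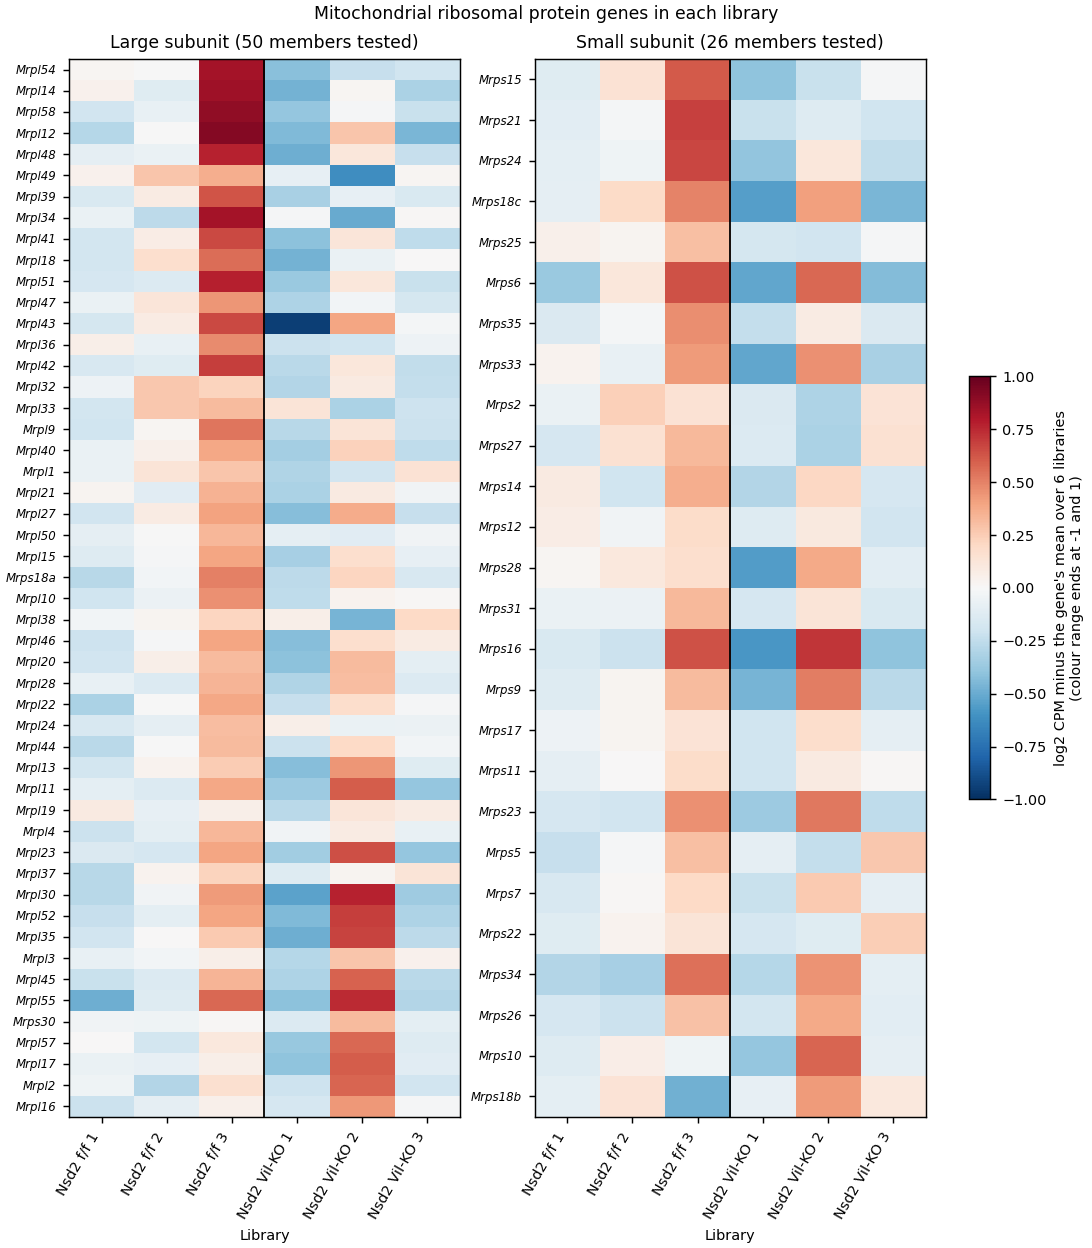
Log2 CPM of each tested member minus its own mean over 6 libraries, by subunit of the structure, with members ordered by log2 fold change and the genotypes separated by a black line. Red columns are f/f replicate 3, above the own mean in 75 of 77 members, and Vil-KO replicate 2, above it in 57; Vil-KO replicate 1 is above it in 3.

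Between the genotypes, the family was lower on average in Vil-KO mice on the CPM scale, by less than the standard error of most single genes. This direction turned on means per length and without f/f replicate 3, whose Nsd2 level was close to that of Vil-KO replicate 1 in CPM and within the Vil-KO range per length. Of the 77 genes, 17 had a positive and 60 a negative log2 fold change, with a median of −0.14, whereas all 14650 genes tested had a median of 0.0026, with 7361 positive and 7289 negative. With scaling by library size only, 28 were positive and 49 negative, with a median of −0.08 beside 0.06 for all genes. Standard errors ran from 0.17 to 0.42, and 51 of the 77 changes were smaller than their own standard error. Without f/f replicate 3, 42 were positive and 35 negative, and without Vil-KO replicate 2, 4 were positive and 73 negative. With both of these libraries left out the layout was close to that of all 6, with 14 positive and 63 negative and a median of −0.12. On means per length 43 were higher and 34 lower in Vil-KO mice, or 25 and 52 when mitochondrially encoded genes were left out of the total. The same counts over all genes are not given here. The scale moved other genes too. Per length, 6.57% of all genes had Vil-KO above without overlap and 1.81% below, against 5.21% and 4.70% in CPM. The turn per length is therefore not particular to the family.

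The medians of the large and the small subunit lay close together. The median log2 fold change of the 48 tested Mrpl genes was −0.16, with 12 positive and 36 negative, and that of the 29 Mrps genes −0.14, with 5 positive and 24 negative. Placed by structure, the medians were −0.16 for the large subunit and −0.14 for the small, or 0.016 and −0.0015 without f/f replicate 3. By symbol they turned without f/f replicate 3, to 0.0097 for Mrpl and 0.017 for Mrps genes, and without Vil-KO replicate 2 they were −0.31 and −0.24. Leaving out both of these libraries gave −0.14 and −0.12. By origin, large-subunit genes shared with bacteria had a median of −0.09 and mitochondria-specific ones of −0.20, while in the small subunit the shared genes were at −0.14 (1 positive, 15 negative) and the mitochondria-specific ones at −0.09. The order of the origins was thus opposite in the subunits, with no test made of this difference. The 16 tested genes with an NRF1 match in the promoter had a median of −0.08 and the 52 without one of −0.17, which describes both sets only.

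**Figure D3:**
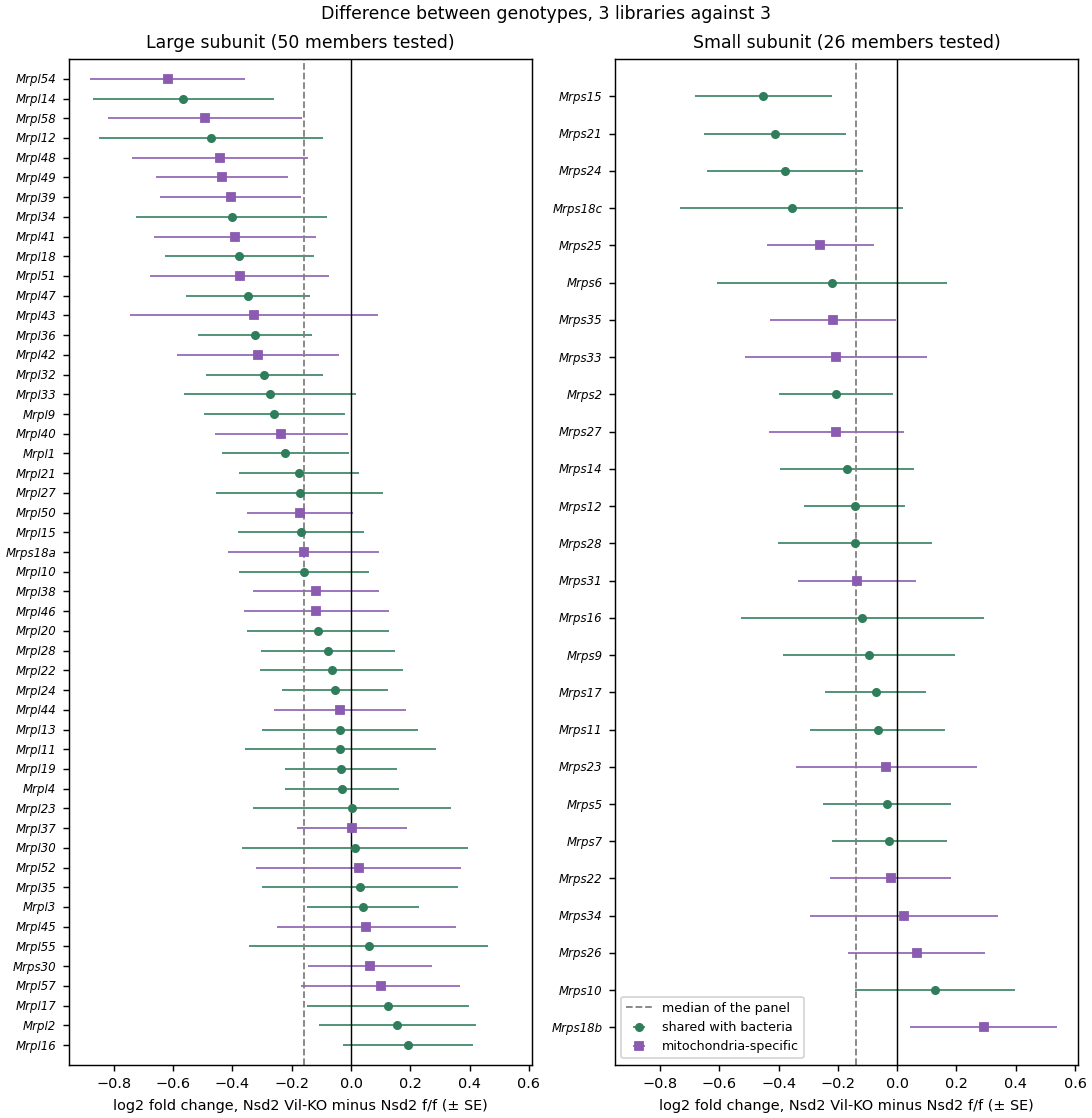
Log2 fold change, Vil-KO minus f/f, with its standard error from edgeR, for each tested member of the large (left) and small (right) subunit of the structure, with circles for members shared with bacteria, squares for mitochondria-specific members and a dashed line for the median of the panel. With all 6 libraries on the CPM scale both medians lie just below 0, at −0.16 and −0.14, and most error bars cross 0 or come close to it. Without f/f replicate 3 the medians by structure are 0.016 and −0.0015.

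With all 6 libraries, the ratio of the subunits did not separate the genotypes, but this rested on f/f replicate 3. The sums cover more large-subunit than small-subunit genes, 50 against 26 with counts. Medians per length, with Mrpl53 at 0, gave a lower ratio of 1.61 to 1.76 over the libraries. Summed per length, large-subunit transcripts exceeded small-subunit transcripts 2.36, 2.38 and 2.60 times in f/f mice (mean 2.44 ± 0.13, SD, n = 3). In Vil-KO mice the ratio was 2.45, 2.46 and 2.42 (mean 2.44 ± 0.02, SD, n = 3). Thus the means differed by less than the spread in either genotype, and the high value in f/f replicate 3 was the widest departure. Principal transcript lengths gave 2.48, 2.49 and 2.69 against 2.58, 2.65 and 2.51.

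The sum over the family depended on how a library was scaled. As a share of all counts, the members took 0.335%, 0.348% and 0.368% in f/f mice and 0.301%, 0.348% and 0.330% in Vil-KO mice, so the genotypes overlapped. Summed CPM was 3638 ± 836 (SD, n = 3) in f/f and 3234 ± 620 (SD, n = 3) in Vil-KO mice, with f/f replicate 3, at 4594, and Vil-KO replicate 2, at 3926, above the other 4 libraries at 2728 to 3276. Per length, these libraries had instead 4327 and 4207, the lowest values beside 4330 in Vil-KO replicate 1, and the others 4614 to 4852. In f/f replicate 3, mitochondrially encoded genes took 33.8% of the total per length, against 12.6% to 17.4% in the other 5. With them left out of the total, that library had the highest sum per length, at 6532, against 5096 to 5602.

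**Figure D4:**
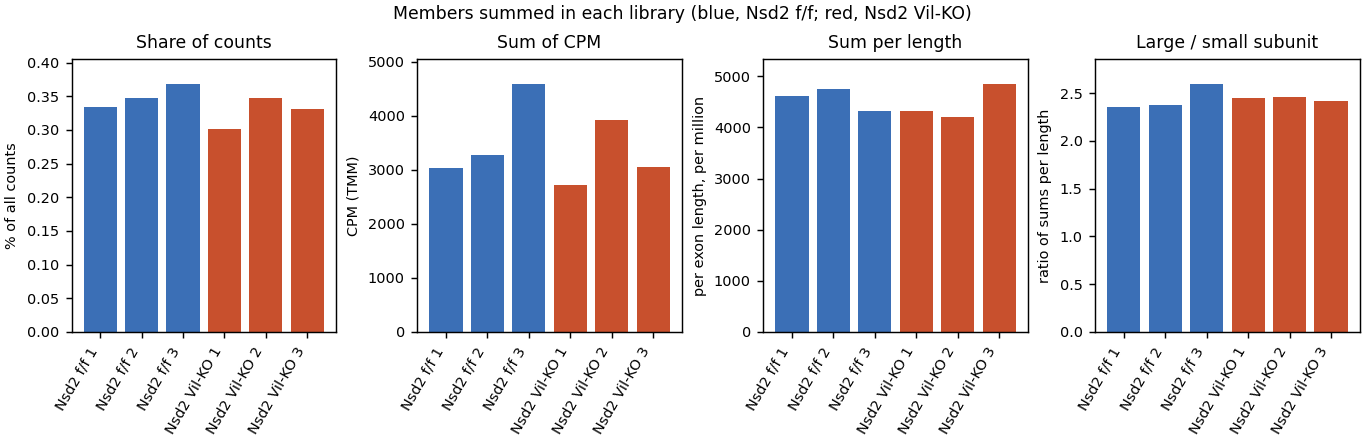
Sums over all members in each library as percent of all counts, as CPM and per exon length, and the ratio of large- to small-subunit sums per length, for f/f (blue) and Vil-KO (red) replicates 1 to 3. Summed CPM is highest in f/f 3 (4594) and Vil-KO 2 (3926), the sums per length are between 4207 and 4852, and the ratio is between 2.36 and 2.60.

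Among single genes, 1 of the 77 passed the screening criterion of a fold change above 1.2 with an unadjusted p below 0.05, which is 1.30% of them, against 2.96% of all genes tested. In all genes, 1.51% passed as higher and 1.45% as lower in Vil-KO mice, and in the family 0 passed as higher and 1 as lower. At an adjusted p below 0.05 there were 0 in the family by edgeR, DESeq2 and limma-voom, and 0% of all genes by edgeR, while 1, 0 and 5 members had an unadjusted p below 0.05 by those tools, beside 2.96%, 4.33% and 9.96% of all genes. Without both f/f replicate 3 and Vil-KO replicate 2, 7 members (9.09%) passed the criterion, each lower in Vil-KO mice. Of all genes, 10.9% passed there in either direction, and the share that passed as lower is not given here. Mrpl12, Mrpl14 and Mrpl54 were among the 7 members, and Mrpl32, Mrps9, Mrps16 and Mrps33 are named only because their values were seen.

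Mrpl54, which encodes a mitochondria-specific protein of the large subunit, was the gene that passed. It lies on chromosome 10 from 81264713 to 81266934 of GRCm38 and had 53.4, 52.5 and 94.1 CPM in f/f and 39.5, 44.9 and 45.8 CPM in Vil-KO mice. The genotypes did not overlap, but the margin was narrow except for f/f replicate 3. The means were 66.7 ± 23.8 CPM (SD, n = 3) and 43.4 ± 3.42 CPM (SD, n = 3). Its log2 fold change was −0.62 (SE 0.26, edgeR adjusted p = 0.999), with an unadjusted p of 0.04999. The exact permutation test, two-sided, gave p = 0.1, the smallest that 10 splits of 6 libraries allow. The call was lost without f/f replicate 3 (log2 fold change −0.28) and without any 1 of the Vil-KO libraries, and under size factors of the DESeq2 type, where p was 0.0506.

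The genotypes did not overlap for 4 of the 77 genes, 5.19% of them, each with Vil-KO below, against 4.70% of all genes in that direction. In the other direction there were 0 of the 77 and 5.21% of all genes. Per length, 4 members were below, against 1.81% of all genes, and 2 above, Mrpl16 and Mrps26, against 6.57%. On the CPM scale, beside Mrpl54, these were Mrps21, Mrps25 and Mrpl49, which overlapped per length and the last of which is named only because its values were seen. Mrps21, a small protein of the small subunit, had 58.5, 62.3 and 101 CPM in f/f and 54.0, 57.8 and 55.0 CPM in Vil-KO mice (log2 fold change −0.41, SE 0.24). Mrps25 had 27.6, 27.2 and 32.9 CPM against 23.6, 23.3 and 26.4 CPM, a log2 fold change of −0.26 (SE 0.18), and exons of Nr2c2 on the opposite strand cover 69.8% of its exon bases, so the counts of the pair cannot be told apart if strand was not used. Mrpl49, whose protein belongs to the large subunit, had a log2 fold change of −0.44 (SE 0.22). Without f/f replicate 3 the log2 fold changes were −0.12 for Mrps21, −0.16 for Mrps25 and −0.36 for Mrpl49. In each of the 4 genes the margin between the genotypes was smaller than the distance of f/f replicate 3 from the other f/f libraries.

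The stalk of the large subunit, where translation factors bind, held the member with the highest level per exon length. Mrpl12 lies on chromosome 11 from 120484613 to 120489065 and had 150.1, 183 and 347 CPM in f/f and 135, 222 and 134 CPM in Vil-KO mice. The genotypes overlapped, since Vil-KO replicate 2 was above both of the lower f/f libraries. The log2 fold change was −0.47 (SE 0.38, adjusted p = 0.999 from edgeR), and −0.02 without f/f replicate 3. Without both this library and Vil-KO replicate 2 it was −0.30 and passed the criterion. Mrpl10, which anchors the stalk, and Mrpl11, which forms its base, had log2 fold changes of −0.16 (SE 0.22) and −0.04 (SE 0.32).

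Other large-subunit genes with low log2 fold changes showed the same layout of libraries. Mrpl14, whose protein lies on the face that meets the small subunit, had 25.8, 23.1 and 45.3 CPM in f/f and 18.0, 25.4 and 20.2 CPM in Vil-KO mice (log2 fold change −0.57, SE 0.31). Exons of Tmem63b on the opposite strand cover 11.2% of its exon bases. Mrpl58, a peptidyl-tRNA hydrolase that is part of the ribosome and can release stalled chains, had 19.3, 20.9 and 41.0 CPM against 16.8, 21.9 and 18.9 CPM, a log2 fold change of −0.49 (SE 0.33). In both, f/f replicate 3 was far above all other libraries, and the other f/f libraries lay within or next to the Vil-KO range. Without that library the log2 fold changes were −0.20 for Mrpl14 and −0.06 for Mrpl58.

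At the exit of the peptide tunnel, the log2 fold changes were close to 0 with all 6 libraries. Mrpl22, Mrpl23 and Mrpl24, which line the exit, had log2 fold changes of −0.07 (SE 0.24), 0.0029 (SE 0.33) and −0.05 (SE 0.18), and Mrpl45, which holds the ribosome to the inner membrane, 0.05 (SE 0.30). All 4 were positive without f/f replicate 3, between 0.11 and 0.25, and negative without Vil-KO replicate 2, between −0.42 and −0.03. In the central protuberance, the part of the large subunit above the tRNA sites, the median over 5 genes was −0.12. They ran from −0.44 for Mrpl48 to 0.03 for Mrpl52. None of these genes passed the criterion, and the signs of Mrpl22, Mrpl23, Mrpl24, Mrpl38, Mrpl45, Mrpl46 and Mrpl52 changed under some alternatives.

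None of the small-subunit genes of the decoding site and the path of the message passed the criterion. Mrps12, whose protein contacts the decoding centre, lies on chromosome 7 from 28739641 to 28741820 and had 40.0, 37.0 and 43.1 CPM in f/f and 34.8, 40.8 and 33.4 CPM in Vil-KO mice. The means were 40.1 ± 3.05 CPM (SD, n = 3) and 36.3 ± 3.94 CPM (SD, n = 3), and the genotypes overlapped. The log2 fold change was −0.14 (SE 0.17), and it stayed between −0.23 and −0.07 under all alternatives tried. Although f/f replicate 3 was the highest library here too, it was not set apart from the others as for Mrpl12. Mrps2, Mrps5 and Mrps24, which line the path of the message, had log2 fold changes of −0.21 (SE 0.19), −0.03 (SE 0.21) and −0.38 (SE 0.26), or −0.18, 0.12 and −0.08 without f/f replicate 3.

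The lowest and the highest small-subunit genes differed in which library departed. Mrps15, an rRNA-binding protein at the face between the subunits, had 47.5, 57.1 and 78.8 CPM in f/f and 39.0, 44.0 and 51.0 CPM in Vil-KO mice (log2 fold change −0.45, SE 0.23, or −0.22 without f/f replicate 3). Only Vil-KO replicate 3 reached into the range of f/f mice. Mrps18b had 18.3, 21.5 and 14.0 CPM against 18.5, 26.4 and 21.0 CPM, a log2 fold change of 0.29 (SE 0.25), or 0.14 without f/f replicate 3 and −0.0011 without that library and Vil-KO replicate 2. It was the 1 gene of the 77 that was lowest in f/f replicate 3. Mrps10 and Mrps26 followed with 0.13 (SE 0.27) and 0.07 (SE 0.23), and their signs changed without Vil-KO replicate 2. Exons of Gm16279 on the opposite strand cover 30.5% of the exon bases of Mrps18b.

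**Figure D5:**
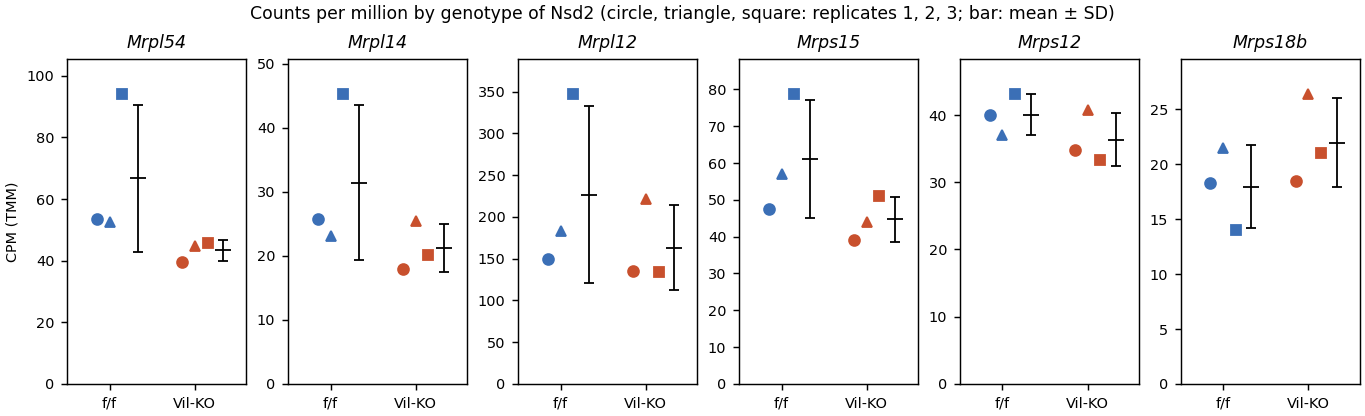
CPM of 6 members in each library, with circles, triangles and squares for replicates 1, 2 and 3 of f/f (blue) and Vil-KO (red) and the mean ± SD beside them. Mrpl54 is the one without overlap between genotypes, and f/f replicate 3 is the highest library for Mrpl54, Mrpl14, Mrpl12, Mrps15 and Mrps12 and the lowest for Mrps18b.

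The Mrps18 genes are 3 related copies of 1 bacterial protein, each with its own place in the ribosome. In the classes by origin above, only Mrps18c was counted as shared with bacteria, and Mrps18a and Mrps18b as mitochondria-specific. Mrps18a, in the large subunit, had 32.1, 38.2 and 55.2 CPM in f/f and 32.4, 45.2 and 34.7 CPM in Vil-KO mice (log2 fold change −0.16, SE 0.26, or 0.09 without f/f replicate 3). Mrps18c had 6.69, 8.15 and 10.1 CPM against 4.83, 9.49 and 5.16 CPM, a log2 fold change of −0.36 (SE 0.38), and it passed the criterion without Vil-KO replicate 2, at −0.73 (4.75% of all genes passed). Mean levels per length of Mrps18a, Mrps18b and Mrps18c were 27.5, 25.7 and 17.5 with the union of exons, but 83.5, 35.9 and 21.4 with principal transcript lengths. With Mrps18b at 0.29, the copies did not share a direction, although none of them passed the criterion with all 6 libraries. Mrps30, the other large-subunit protein with a small-subunit name, had 18.8, 18.7 and 19.5 CPM against 17.6, 24.1 and 18.0 CPM, a log2 fold change of 0.06 (SE 0.21). Mrps36 had 27.9, 38.2 and 74.5 CPM against 28.8, 42.8 and 34.8 CPM, a log2 fold change of −0.40 (SE 0.37), with f/f replicate 3 far above the rest, and 0.10 without that library.

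Among the highest log2 fold changes of the large subunit, the high library was Vil-KO replicate 2. Mrpl2, a protein close to the site of peptide bond formation, had 53.7, 45.2 and 61.6 CPM in f/f and 47.8, 82.7 and 48.4 CPM in Vil-KO mice (log2 fold change 0.16, SE 0.26). Mrpl16 and Mrpl17, both rRNA-binding proteins, had 0.19 (SE 0.22) and 0.12 (SE 0.27). All 3 changed sign without Vil-KO replicate 2, at −0.15 for Mrpl2, −0.0027 for Mrpl16 and −0.22 for Mrpl17.

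Many of these genes share a start region or exons with a neighbour. For 33 of the 78, a coding gene on the other strand starts within 1000 bases of the start, in a head-to-head layout or with overlapping starts. Mrps12 and Sars2, a mitochondrial seryl-tRNA synthetase, start 172 bases apart, and Mrpl46 and Mrps11 overlap at their starts by 412 bases, which makes them a pair with 1 gene from each symbol class. Sars2 had a log2 fold change of −0.07 beside −0.14 for Mrps12, and Mrps11 one of −0.07 beside −0.12 for Mrpl46. The 33 genes had a median of −0.17 and the 30 tested partners of −0.07, of which 12 were positive and 18 negative. Of the partners, Mitd1, the neighbour of Mrpl30, passed the criterion at −0.78 (SE 0.31), whereas Mrpl30 itself was at 0.01. Exons of another gene overlapped 28 members on the opposite strand and 8 on the same strand. The 32 tested genes with such overlap had a median of −0.21 and the 45 without it of −0.12, or −0.12 and −0.13 without f/f replicate 3 and Vil-KO replicate 2. The part of reads in shared exons was not tested.

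The related lists give the surroundings of the family in the same comparison. The 5 ribosomal proteins under other names had a median log2 fold change of −0.10, with 1 positive and 4 negative. Of 25 genes for assembly of the ribosome and modification of its RNA, 11 were positive and 14 negative, with a median of −0.05. Of 13 translation factors of mitochondria, 4 were positive and 9 negative (median −0.10), and of 17 mitochondrial aminoacyl-tRNA synthetases 6 and 11 (median −0.07). The nuclear genes for expression of the mitochondrial genome, from replication and transcription to the processing and decay of its RNA, had 3 positive and 13 negative (median −0.14). No gene of these lists passed the criterion with all 6 libraries. Without f/f replicate 3 and Vil-KO replicate 2 the medians were −0.03 for the ribosomal proteins under other names, 0.04 for assembly, 0.06 for translation factors, 0.12 for the synthetases and 0.0053 for genome expression, the first of these below 0 and the others above.

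Regulators of mitochondrial biogenesis showed no common direction with all 6 libraries. Of 11 tested, 6 were positive and 5 negative, with a median of 0.02, and none passed the criterion with all 6 libraries. Genotypes did not overlap for 2, with Vil-KO above (5.21% of all genes), and for 0 with Vil-KO below (4.70%). Without Vil-KO replicate 2, 8 were positive and 3 negative (median 0.13), and likewise without f/f replicate 3 as well (median 0.08). Ppargc1b, named only because its values were seen, passed without f/f replicate 3, at 0.60, and without both, at 0.48 (2.89% and 10.9% of all genes passed). Nrf1 and Gabpa, transcription factors that bind the NRF1 and ETS motifs above, had log2 fold changes of 0.24 (SE 0.18) and 0.20 (SE 0.18). Ppargc1a, their coactivator, had 17.6, 22.8 and 55.2 CPM in f/f and 15.9, 15.7 and 18.0 CPM in Vil-KO mice (log2 fold change −0.94, SE 0.43) with f/f replicate 3 far above the rest and an overlap between genotypes. Without that library its log2 fold change was −0.29. Esrra had −0.01 (SE 0.18), Myc −0.32 (SE 0.52), Tfam, which packages mitochondrial DNA, −0.20 (SE 0.19), and Polrmt, the mitochondrial RNA polymerase, 0.24 (SE 0.30). Polrmt passed the criterion without Vil-KO replicate 2, at 0.51, and Tfam without that library and f/f replicate 3, at −0.32.

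On the CPM scale, the messages that the ribosome translates were, like most of the family, highest in f/f replicate 3. The cytosolic counterpart of the family was highest in Vil-KO replicate 2. All 12 tested mitochondrially encoded mRNAs had negative log2 fold changes, with a median of −1.03, and 1 passed the criterion, mt-Atp6, with 49.0, 49.1 and 161 CPM in f/f and 28.9, 49.8 and 21.1 CPM in Vil-KO mice (log2 fold change −1.38, SE 0.56). Without f/f replicate 3, 6 of the 12 were positive and 6 negative, with a median of 0.0095, and mt-Atp6 was at −0.56 and no longer passed. Without Vil-KO replicate 2 as well, all 12 were negative, with a median of −0.19, and mt-Atp6 passed at −0.96. f/f replicate 3 held 142651 CPM of mt-Co1 against 28906 to 68459 elsewhere. All 6 libraries held far less of mt-Atp6, at 21.1 to 161 CPM, and the reason for this low level was not tested. In these polyA libraries, the 2 mitochondrial rRNAs were at 1.62 CPM or less. For 78 tested cytosolic ribosomal protein genes, 41 were positive and 37 negative, with a median of 0.0050. Without f/f replicate 3, 70 of 79 were positive, with a median of 0.25, and without Vil-KO replicate 2, 77 of 79 were negative, with a median of −0.56. With both left out, 77 were again negative, with a median of −0.33, and 54 passed the criterion, against 10.9% of all genes. In Vil-KO replicate 2 their deviation from the own mean had a median of 0.81 on the log2 CPM scale, against 0.13 for Mrpl and 0.21 for Mrps genes, while in f/f replicate 3 it was 0.44, against 0.39 and 0.32. The library that was highest for cytosolic ribosomal proteins was thus not the one that was highest for mitochondrial ones.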

How the data were processed

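Libraries were grouped by genotype from their labels, and all 6 columns were used (0 left out). The labels name the Vil-KO libraries NSD2-FF-VILCRE and the f/f libraries WT. That the WT libraries are Nsd2 f/f comes from the paper. The authors deposited whole-number counts per Ensembl gene, without normalisation. Per the methods, polyA RNA was sequenced in paired ends, and per the submitters' processing notes HISAT2 and mm10 were used. Which program counted reads, and whether it used strand, is not given in the sources used here. Libraries may not be separate animals, so p-values measure the spread between them.

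R 4.3.3 with edgeR 4.0.16 was used: TMM, filterByExpr (14650 genes) and robust quasi-likelihood tests with Benjamini-Hochberg adjustment across these genes; the biological coefficient of variation was 41.2%. The study's Ballgown test needs transcript coverage, so counts were tested. The fit was tested on simulated data. An undetected gene was given a floor of 3 counts, for counting error only. Coordinates, lengths and overlaps came from GENCODE vM21 (99.5% of listed genes found). Alternatives used DESeq2 1.42.0, limma 3.58.1 and other settings, and figures matplotlib 3.10.9.

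The members, gene lists and tests were chosen with earlier results of these data known. Genes were named by rule: Nsd2, Mrpl12 and Mrps12, members past the criterion, the 3 highest and 3 lowest of each subunit by log2 fold change and by level per length, members of functional sites, Mrps18a to c, Mrps30 and Mrps36, and, of related lists, genes past the criterion and 7 regulators.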

Additional observations from a re-analysis of the deposited data

How the results depend on the processing

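Of 17 alternatives for each of the 36 members named by rule, 15 members kept the sign of their log2 fold change in all and 21 changed it in at least 1 (69 of 612 values). The number of members past the criterion was 1, and 0 with size factors of the DESeq2 type, with DESeq2, with the exon length trend removed and at an adjusted p below 0.05. It was 5 with limma-voom and quality weights (Mrpl32, Mrpl40, Mrpl54, Mrps18c and Mrps33, named after their values were seen; 9.83% of all genes passed) and 7 without both Vil-KO replicate 2 and f/f replicate 3 (10.9% of all genes). With each library left out in turn it was between 0 and 3. The median log2 fold change was between −0.31 and 0.0097 for Mrpl genes and between −0.24 and 0.017 for Mrps genes with each library left out, positive for both only without f/f replicate 3, where it reversed to 0.0097 and 0.017. Under every other alternative tried both medians were negative. Over all genes, 434 passed the criterion with edgeR, 633 with DESeq2, 1440 with limma-voom, 684 with no filter, 267 with the block, 719 without Vil-KO replicate 2, 266 without f/f replicate 2 and 1636 in the 4 libraries, and DESeq2 gave 4 at an adjusted p below 0.05. Same-numbered libraries did not deviate together (correlations 0.32, −0.35 and −0.11), so the numbers were not taken as pairs; with a replicate block, 0 members passed, the medians were −0.15 for Mrpl and −0.15 for Mrps genes, and the log2 fold change of Nsd2 was −1.16.

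Ratios of large to small subunit were recomputed in ways chosen after the data were seen. The mean was 2.21 in f/f and 2.22 in Vil-KO mice with the subunit of the symbol, and 2.55 and 2.58 with principal transcript lengths. On both, each Vil-KO library lay above f/f replicates 1 and 2 and below f/f replicate 3. With 3 libraries a genotype and standard errors of 0.17 to 0.42, changes of the size of the family median were not detectable for single members.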
